A study of Mus musculus with 6 samples.

Results

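The enzymes that make and break down retinoic acid and the nuclear receptors that read it were followed in mouse embryonic stomach in which hedgehog signalling had been switched on. The 10 genes were chosen by name: the receptor genes Rxra, Rxrb, Rxrg, Rara, Rarb and Rarg, the synthesis genes Aldh1a1, Aldh1a2 and Aldh1a3, and Cyp26b1, which encodes an enzyme of breakdown. Each was represented by 1 probe set annotated to that symbol alone, among 19938 genes measured in all. RNA was taken from whole stomach at the embryonic stage E13.5 and hybridised to 6 Affymetrix arrays. On 3 arrays the embryos carried Nkx3.2Cre and R26-SmoM2 (called SmoM2), and on the other 3 they were labelled wild type. SmoM2 is a form of Smoothened that is active without ligand, placed at the Rosa26 locus, and the Cre acts where the Nkx3-2 gene is on, so the switch is limited to those cells and their descendants while the array reads every cell type of the organ together. The labels do not say whether wild type embryos were littermates or carried either allele alone, and do not say how many embryos a sample holds, so the p-values speak for the spread among these arrays, which may be technical in part.

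Retinoic acid is made from vitamin A by an alcohol-to-aldehyde step and then by the aldehyde dehydrogenases of the Aldh1a family, and it is degraded by the Cyp26 enzymes. Inside the cell it binds a retinoic acid receptor (RAR), which sits on DNA as a pair with a retinoid X receptor (RXR), and the RXRs also pair with thyroid hormone, vitamin D and PPAR receptors. In the embryo the pathway patterns the gut tube and its mesenchyme, and Aldh1a2 is the main source of retinoic acid in mesoderm.

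The regions around the starts of Rxrg and Rarb are shown, Rxrg because it was the gene that changed and Rarb because its promoter is the textbook example of a retinoic acid response element, which makes its transcript a common readout of the pathway. Sequences are from RefSeq on GRCm38.p6, cover 250 bases before to 50 after an annotated start, and run 5′ to 3′ on the strand of the gene. Capitals mark matches to the motifs described after them. Both Rxrg windows lie on the plus strand, the first at chr1:167598112-167598411 and the second at chr1:167618015-167618314, and the Rarb window lies on the minus strand at chr14:16575427-16575726.
Rxrg first start: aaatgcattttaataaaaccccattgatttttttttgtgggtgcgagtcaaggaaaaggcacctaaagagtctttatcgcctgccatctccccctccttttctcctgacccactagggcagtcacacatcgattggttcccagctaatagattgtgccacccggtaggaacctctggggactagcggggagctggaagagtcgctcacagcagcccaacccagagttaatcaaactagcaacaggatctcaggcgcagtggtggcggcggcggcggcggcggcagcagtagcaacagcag
Rxrg second start: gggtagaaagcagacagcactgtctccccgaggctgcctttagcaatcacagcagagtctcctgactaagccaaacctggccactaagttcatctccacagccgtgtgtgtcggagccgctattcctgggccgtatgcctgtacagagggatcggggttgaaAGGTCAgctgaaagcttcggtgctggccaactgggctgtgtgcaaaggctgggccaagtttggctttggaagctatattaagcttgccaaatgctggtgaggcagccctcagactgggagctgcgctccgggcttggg
Rarb: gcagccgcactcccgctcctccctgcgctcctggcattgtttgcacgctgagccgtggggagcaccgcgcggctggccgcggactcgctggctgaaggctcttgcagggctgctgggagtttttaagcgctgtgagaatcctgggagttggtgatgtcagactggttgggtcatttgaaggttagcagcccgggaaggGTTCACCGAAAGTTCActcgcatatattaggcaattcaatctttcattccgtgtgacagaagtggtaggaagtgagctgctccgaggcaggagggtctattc

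In the Rarb window the capitals mark GTTCACCGAAAGTTCA, a repeat of GTTCA with 6 bases between, which begins 52 bases before the start. That motif was searched on both strands after the Rarb window had been read, and 25 of 32851 windows of this length in the RefSeq table (0.0761%) held it. Counted with the base before each GTTCA, the Rarb repeat reads GGTTCA and AGTTCA with 5 bases between. The exact AGGTCA repeats searched below cannot match those letters. In the second Rxrg window the capitals mark AGGTCA, the core motif that nuclear receptors recognise, 88 bases before the start, which 16.3% of all windows hold on either strand. The first Rxrg window held none of the motifs searched. RefSeq windows were found for 9 of the 10 genes, 17 windows in all. Aldh1a3 had none in the table. The core motif occurred in 4 of the 17, 1 window each of Rxra, Rxrg, Rara and Rarg. Direct repeats of AGGTCA with 5, 2 or 1 bases between and the Gli motif GACCACCCA, searched on both strands, occurred in 0 of the 17 windows, and in 0.0091%, 0.0091%, 0.0396% and 0.253% of all windows. Each AGGTCA repeat contains the core motif by construction. These are matches of letters in a short window and say nothing of whether a factor binds there.

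As a check of the labels, Hhip, a target of the hedgehog pathway, averaged 11.70 ± 0.03 in SmoM2 and 10.42 ± 0.07 in wild type (log2 signal, SD, n = 3 each; limma adjusted p = 0.000175). Of the other genes fixed for this check, Ptch1 also passed (log2 change 0.48, limma adjusted p = 0.0174). Gli1 (0.42, adjusted p = 0.0727), Smo (0.35, adjusted p = 0.154) and Nkx3-2 (-0.12, adjusted p = 0.648) did not pass. Values here are log2 signals from RMA, on which a difference of 1 is a doubling. Over all genes 196 of 19938 (0.983%) passed an adjusted p of 0.05 in limma, 65 higher (0.326%) and 131 lower (0.657%) in SmoM2, and the groups did not overlap in 15.7%. Xist, which is transcribed in females, ran between 11.43 and 12.37 on the SmoM2 arrays. It stood at 7.11 on the first wild type array and at 11.68 and 11.94 on the other 2. The mean of 3 Y-linked genes was 8.71, 8.94 and 9.27 in SmoM2 1, 2 and 3, and 10.37, 9.92 and 9.07 in wild type 1, 2 and 3, so the samples differed in sex-linked transcripts within and between the groups. All 10 retinoic acid genes stood above the 95th percentile of olfactory and vomeronasal receptor genes, taken as unexpressed in stomach, on every array. Signals of different probe sets are not on one scale, so the level of one gene is not set against that of another.

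Of the 10 genes 1 changed, against 0.983% of all genes. Rxrg fell to an average of 0.551 of its wild type signal, while the other 9, among them Rxra, Rxrb and all 3 RAR genes, did not pass the threshold. The median change of the 10 was 0.03 on the log2 scale, beside 0.00182 over all genes, with 8 positive and 2 negative changes. Rxrg and Rarg were the 2 genes of the 10 whose groups did not overlap, beside 15.7% of all genes. Rxrg and Aldh1a1 were the 2 with an unadjusted p under 0.05, beside 10.5% of all genes.

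**Figure D1:**
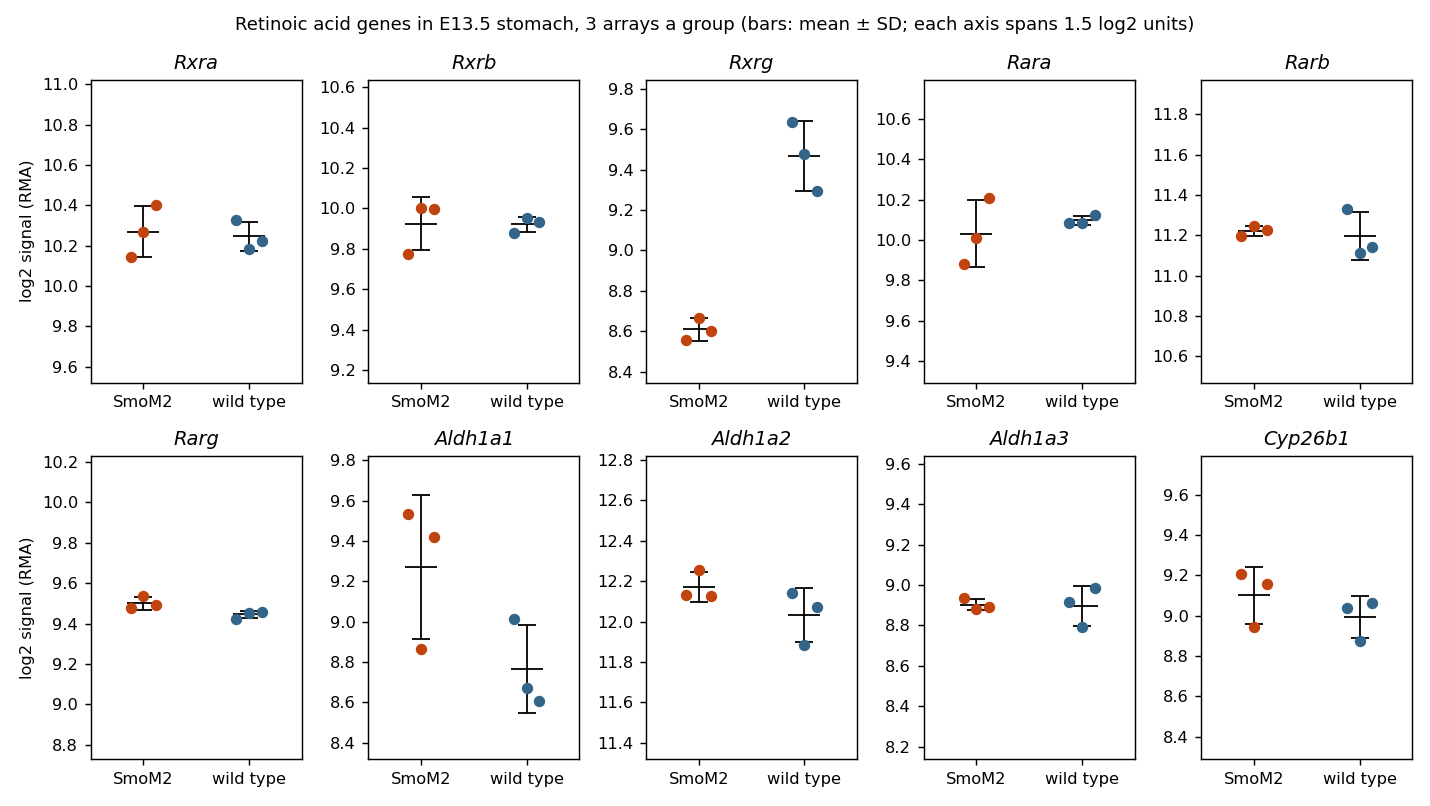
Log2 RMA signal of the 10 retinoic acid genes on each array (points), with the mean ± SD of 3 SmoM2 arrays on the left of each panel and of 3 wild type arrays on the right; each vertical axis spans 1.5 log2 units around the values of its gene. The Rxrg points lie between 8.56 and 8.67 in SmoM2 and between 9.29 and 9.63 in wild type, and in the other panels except Rarg the groups overlap.

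Among the RXR genes, Rxrg had signals of 8.56, 8.67 and 8.60 in SmoM2 1, 2 and 3, against 9.63, 9.48 and 9.29 in wild type 1, 2 and 3. Every SmoM2 array lay below every wild type array, with a gap of 0.63 between the nearest pair and a range of 0.34 within wild type. Rxrg encodes the RXR with the most restricted expression, best known from muscle and parts of the nervous system. Its mean was 8.61 ± 0.06 in SmoM2 and 9.47 ± 0.17 in wild type (SD, n = 3 each), a 1.81-fold lower signal in SmoM2 (log2 change -0.86, SE 0.09, 95% interval -1.07 to -0.65, limma adjusted p = 0.00401; probe set 10351430). By its unadjusted p it ranked 23rd of all genes, and 99.8% of genes had a smaller change in size. The call held when each array was left out in turn, with changes from -0.95 to -0.78 and an adjusted p of at most 0.0427.

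The wild type values of Rxrg followed the order of the Y-linked signal, highest in wild type 1 and lowest in wild type 3, and the SmoM2 values did not, since SmoM2 3 had the highest Y-linked signal of its group and SmoM2 2 the highest Rxrg. In a pair of arrays picked after the values were seen, SmoM2 3 lay above wild type 3 in Y-linked signal (9.27 and 9.07). In Rxrg SmoM2 3 lay below wild type 3 (8.60 and 9.29), and a single picked pair cannot tell Y-linked signal from SmoM2. When the Y-linked signal entered the fit as a covariate, the change was -0.67 (SE 0.11) and did not pass (adjusted p = 0.0608), and 22 genes in all passed in that fit. Against wild type 3 alone, a comparison with 1 wild type array chosen after the values were seen, the difference was -0.68. Y-linked signal ran from 8.71 to 9.27 in SmoM2 and from 9.07 to 10.37 in wild type, so it went partly with the group. Its part in the lower Rxrg signal cannot be told apart from that of SmoM2 on these arrays.

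The other RXR genes, which are expressed widely, stood level between the groups. Rxra had signals of 10.14, 10.27 and 10.40 in SmoM2, against 10.33, 10.19 and 10.23 in wild type, with the wild type values inside the SmoM2 range (log2 change 0.02, 95% interval -0.16 to 0.21). Rxrb had signals of 9.772, 10.003 and 9.998 in SmoM2, against 9.878, 9.952 and 9.931 in wild type, again inside the SmoM2 range (log2 change 0.00375, 95% interval -0.18 to 0.19). Rxrg minus the mean of Rxra and Rxrb, taken within each array, was -1.49 ± 0.10 in SmoM2 and -0.62 ± 0.16 in wild type (SD, n = 3 each). That within-array difference moved by -0.87, with no overlap of the groups (exact two-sided permutation p = 0.1, the smallest that 3 against 3 allows, and 0.3 after adjustment over 3 such comparisons).

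The 3 RAR genes encode the receptors that bind retinoic acid itself. Rarb had signals of 11.20, 11.25 and 11.22 in SmoM2, against 11.33, 11.11 and 11.14 in wild type. All SmoM2 values lay within the wild type range, and the interval of the change ran from -0.15 to 0.20 (log2 change 0.03, adjusted p = 0.955). For the gene with the repeat shown above, a change of more than 1.15-fold in the mean signal thus lay outside its 95% interval in this fit. With the Y-linked covariate the change was 0.11, with an SE of 0.11 against 0.08 here. Rara, the most widely expressed RAR, had signals of 9.88, 10.01 and 10.21 in SmoM2, against 10.08, 10.09 and 10.13 in wild type. Its SmoM2 arrays spanned 0.33 and its wild type arrays 0.04, all wild type values falling inside (log2 change -0.07, 95% interval -0.26 to 0.13).

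Rarg, the RAR best known from skin and cartilage, had signals of 9.48, 9.53 and 9.49 in SmoM2, against 9.42, 9.45 and 9.46 in wild type. The groups did not overlap, as in 15.7% of all genes, but the gap was 0.02 and the change small (log2 change 0.05, SE 0.06, adjusted p = 0.845). Rarb minus the mean of Rara and Rarg within an array was 1.46 ± 0.07 in SmoM2 and 1.42 ± 0.13 in wild type (SD, n = 3 each; exact permutation p = 0.8, adjusted 0.8).

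**Figure D2:**
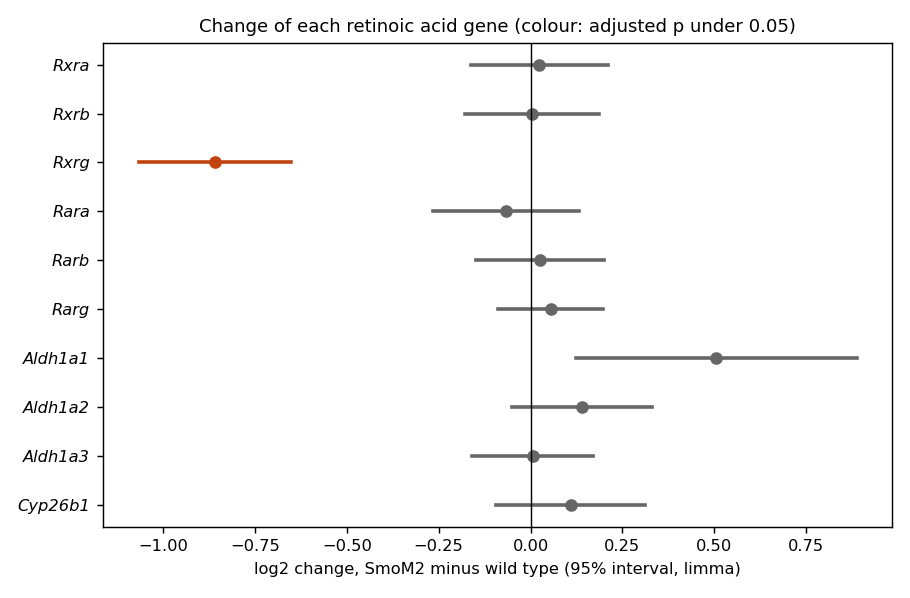
Log2 change of each gene, SmoM2 minus wild type (points), with its 95% interval from limma (lines); colour marks an adjusted p under 0.05. Rxrg stands alone at -0.86, Aldh1a1 has the widest interval, from 0.12 to 0.89, and the other 8 intervals include 0.

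Among the synthesis genes Aldh1a1 had the largest difference and the largest spread. Its signals were 9.53, 8.86 and 9.42 in SmoM2 1, 2 and 3, against 9.02, 8.67 and 8.61 in wild type 1, 2 and 3. SmoM2 2 lay below wild type 1, so the groups overlapped, and SmoM2 1 and 3 lay above every wild type array. Aldh1a1 encodes a retinaldehyde dehydrogenase found in several epithelial and mesenchymal tissues. It averaged 9.27 ± 0.36 in SmoM2 and 8.76 ± 0.22 in wild type (SD, n = 3 each), 1.42-fold apart, and did not pass over all genes (log2 change 0.51, SE 0.17, 95% interval 0.12 to 0.89, unadjusted p = 0.0147, limma adjusted p = 0.289). When single arrays were left out it passed in 1 of 6 fits, without SmoM2 2 (0.71, adjusted p = 0.0353), and the change was 0.38 (adjusted p = 0.564) without SmoM2 1 and 0.43 (adjusted p = 0.768) without SmoM2 3.

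Aldh1a2, the main retinoic acid source of the embryonic mesoderm, had signals of 12.13, 12.26 and 12.13 in SmoM2, against 12.14, 11.88 and 12.07 in wild type. Wild type 2 was the low array and wild type 1 lay above 2 of the SmoM2 arrays (log2 change 0.14, SE 0.08, 95% interval -0.05 to 0.33, adjusted p = 0.648). Aldh1a3, known from sensory and epithelial tissues, had signals of 8.93, 8.88 and 8.89 in SmoM2, against 8.91, 8.79 and 8.99 in wild type, the SmoM2 values within the wild type range (log2 change 0.00556, 95% interval -0.16 to 0.17). Aldh1a1 minus the mean of Aldh1a2 and Aldh1a3 within an array was -1.27 ± 0.38 in SmoM2 and -1.70 ± 0.21 in wild type (SD, n = 3 each; exact permutation p = 0.3, adjusted 0.45).

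Cyp26b1, a cytochrome P450 that clears retinoic acid, had signals of 9.21, 8.94 and 9.16 in SmoM2, against 9.04, 8.87 and 9.06 in wild type. SmoM2 2 lay below wild type 1 and 3, and the difference was within the spread of the arrays (log2 change 0.11, SE 0.09, 95% interval -0.09 to 0.31, adjusted p = 0.772). Leaving out Rxrg and Aldh1a1, the changes of the other 8 genes ran from -0.07 to 0.14, with adjusted p from 0.648 to 0.995. Their 95% intervals reached no farther than -0.26 and 0.33, so a change in mean signal beyond 1.26-fold lay outside every one of these 8 intervals in this fit. With the Y-linked covariate the SE of each was larger, for Aldh1a2 0.13 against 0.08, so the bound does not carry over to that fit.

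The genes with profiles nearest to that of Rxrg over the 6 arrays were Kazald1, Hey2, Dbh and Rgs5, measured by the root-mean-square difference between log2 profiles centred on each gene's mean. These differences were 0.07, 0.07, 0.08 and 0.08. Hey2 encodes a transcription factor induced by Notch, Dbh the enzyme that makes noradrenaline, Rgs5 a regulator of G-protein signalling known from pericytes, and Kazald1 a secreted protein related to the insulin-like growth factor binding proteins. Hey2 had signals of 8.75, 8.89 and 8.94 in SmoM2, against 9.73, 9.73 and 9.54 in wild type. Dbh had signals of 8.84, 8.86 and 8.99 in SmoM2, against 9.78, 9.73 and 9.61 in wild type. All 4 were low on the 3 SmoM2 arrays, with changes from -0.81 to -0.72, as the choice of near profiles fixes.

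The genes nearest to Aldh1a1 were Cldn11, Cnn1, Zfp352 and Ednrb, at root-mean-square differences of 0.10, 0.12, 0.16 and 0.17. Cnn1, which encodes the smooth muscle protein calponin, had signals of 9.96, 9.51 and 9.86 in SmoM2, against 9.36, 9.22 and 9.29 in wild type. Within SmoM2, both Aldh1a1 and Cnn1 were lowest on SmoM2 2, a likeness for which Cnn1 was chosen. Cldn11 is a claudin and Ednrb the endothelin receptor of enteric neural crest, and Zfp352 a zinc finger gene whose signals, from 7.11 to 7.68, lay below the 95th percentile of the unexpressed receptor genes.

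**Figure D3:**
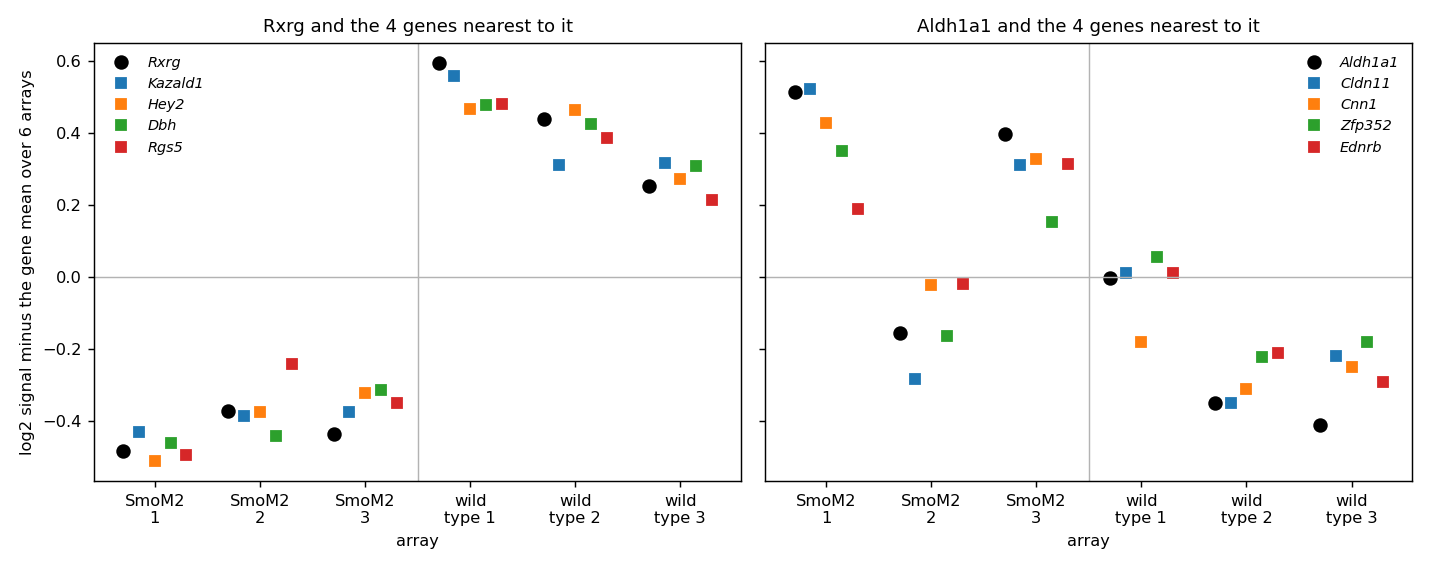
Log2 signal minus the gene's mean over the 6 arrays for Rxrg (left) and Aldh1a1 (right), each with the 4 genes nearest to it; SmoM2 arrays stand left of the line and wild type arrays right of it. The Rxrg set is below 0 on all SmoM2 arrays and above 0 on all wild type arrays, while the Aldh1a1 set is lower on SmoM2 2 than on SmoM2 1 and 3. Both shared patterns follow from the choice of near profiles.

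Markers of other cell types differed between the same arrays. The counts of markers that fell or rose stand beside 0.657% and 0.326% of all genes. In bulk tissue fewer cells of a type and less RNA per cell cannot be told apart. In the epithelium list 7 of 10 markers fell and 0 rose, with summed linear signals between 12353 and 13792 in SmoM2 and between 18162 and 20358 in wild type. Those with the largest changes were the splicing factor Esrp1 (-0.68), Cldn6 (-0.66), Cdh1, which encodes E-cadherin (-0.58), and the keratin Krt18 (-0.57). In the list of enteric neurons and glia 4 of 10 measured markers fell and 0 rose, namely Dcx (-1.07), Nefm (-1.01), Nefl (-0.84) and Dbh (-0.81), with summed signals between 6922 and 8202 in SmoM2 and between 9626 and 10933 in wild type. The other 6 did not pass: Stmn2 was at -0.50, and Ret, Elavl4, Tubb3, Sox10 and S100b, named to complete the list, were between -0.09 and 0.11.

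In the mesothelium list 2 of 7 markers fell, Wt1 (-0.52) and Bnc1 (-0.72), beside 0.657% of all genes. Sums of the list lay between 5397 and 6217 in SmoM2 and between 7449 and 7893 in wild type. The other 5 did not pass: Lrrn4 (-0.24), Upk1b (-0.20), Upk3b (-0.17), Msln (0.08) and Muc16 (0.01). Of 6 measured pancreas genes 2 fell, Cpa1 (-0.98) and Gcg (-0.86), and 0 rose. Pdx1 was lower and did not pass (-0.41, limma adjusted p = 0.0662). The other 3 had a positive change that did not pass, Cela1 (0.20), Ptf1a (0.16) and Ins2 (0.03). Summed signals of the 6 lay between 4884 and 5339 in SmoM2 and between 7468 and 10381 in wild type. Of 3 genes of the spleen anlage Tlx1 fell (-0.94), with sums between 2328 and 2479 in SmoM2 and between 2820 and 2931 in wild type. Nkx2-5 and Nkx3-2, both at -0.12, did not pass. No member passed in the other lists that were lower in summed signal, endothelium and leukocytes. Endothelium summed to 10463 to 11618 in SmoM2 and 12486 to 12889 in wild type (Kdr -0.36, Tek -0.32). Leukocytes summed to 1855 to 2284 in SmoM2 and 2509 to 2728 in wild type (Pf4 -0.48, Lyz2 -0.39). In these lists 3 of 6 and 4 of 5 had an unadjusted p under 0.05, beside 10.5% of all genes. RMA gives no marker a value of 0. The part of these cell types in the lower Rxrg signal was not tested.

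Smooth muscle markers moved the other way: 4 of 8 rose, Myocd (0.86), Actg2 (0.69), Myl9 (0.61) and Acta2 (0.47), and 1 fell, Des (-0.54). Over all genes 0.326% rose and 0.657% fell. The smooth muscle list had summed signals between 15271 and 18509 in SmoM2 and between 11480 and 12303 in wild type. Of 8 skeletal muscle markers 0 passed, and 2 had an unadjusted p under 0.05, beside 10.5% of all genes. Their sums lay between 3430 and 3957 in SmoM2 and between 2992 and 3457 in wild type (Acta1 0.41, Actc1 0.28). The liver list, a tissue next to the stomach, overlapped between the groups, with 0 of 5 past the threshold (2 at an unadjusted p under 0.05) and sums between 6365 and 13076 in SmoM2 and between 7442 and 12968 in wild type (Ambp -0.63, Alb 0.61). The part of smooth muscle in the Aldh1a1 values was likewise not tested.

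Genes that deliver and convert vitamin A showed no call. Of 22 measured genes of retinoid uptake, transport and metabolism 0 passed in limma, with a median change of 0.02. In 7 the unadjusted p was under 0.05, beside 10.5% of all genes. The groups did not overlap in 4 that were lower and 2 that were higher in SmoM2, where 10.1% and 5.64% of all genes do so. The largest differences were in Adh1, an alcohol dehydrogenase that acts on retinol, and Ttr, the plasma carrier transthyretin, which is also a liver marker. Adh1 had signals of 8.94, 9.29 and 9.02 in SmoM2, against 9.40, 9.90 and 9.60 in wild type (log2 change -0.55, adjusted p = 0.113), and Ttr was at -0.40 (adjusted p = 0.285). The others without overlap, named after their values were seen, were Crabp1, a cytosolic retinoic acid binding protein, at -0.32 (adjusted p = 0.0805), Stra6, the membrane receptor for retinol and its carrier, at -0.26, Cyp1b1 at 0.23 and the carotene-cleaving enzyme gene Bco1 at 0.23. Rdh10 and Dhrs3, which oxidise retinol and reduce retinaldehyde, were at 0.05 and 0.03, and Cyp26a1 and Cyp26c1, of the same family as Cyp26b1, at 0.14 and 0.01, all 4 likewise named after their values were seen.

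Of 18 measured genes known to respond to retinoic acid 1 fell, 0 rose and 17 did not pass, with a median change of -0.08. Over all genes 0.657% fell and 0.326% rose. Of the 18, 6 had an unadjusted p under 0.05, beside 10.5% of all genes. The 1 was Gata6, an endodermal transcription factor (log2 change -0.57, SE 0.09, adjusted p = 0.0241). The next largest was Tgm2, a transglutaminase induced by retinoic acid in many cells, which averaged 10.47 ± 0.17 in SmoM2 and 10.08 ± 0.06 in wild type (SD, n = 3 each; log2 change 0.39, adjusted p = 0.102). The groups of 6 genes did not overlap with SmoM2 lower and of 1 with SmoM2 higher, Tgm2, beside 10.1% and 5.64% of all genes. Gata6 and its relative Gata4 (-0.36, adjusted p = 0.0532, chosen with its value in view) are also expressed by stomach epithelium. Epithelial markers were lower on the same arrays, and their part in the Gata6 and Gata4 values was not tested.

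**Figure D4:**
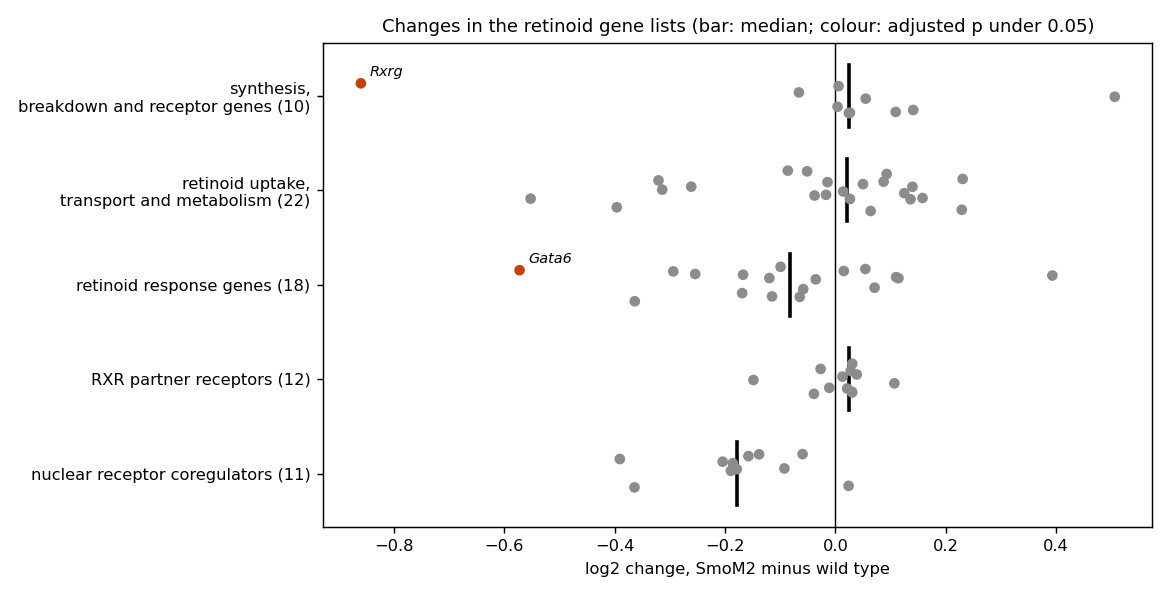
Log2 change, SmoM2 minus wild type, of each gene (points) in the 10 retinoic acid genes and in 4 further lists, with the number of measured genes in brackets, the median as a bar and colour for an adjusted p under 0.05. Rxrg and Gata6 are the coloured points, and the medians run from -0.18 for the coregulators to 0.03 for the 10 genes.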

How the data were processed

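Total RNA of 6 stomach samples was extracted with Trizol and biotin-labelled, per the labels' protocols. The deposited values are log2 signals of 35556 probe sets. The submitters' processing notes name RMA and affy, with no version. RMA draws the arrays to a common distribution and compresses low signals. Titles gave the group and the number of each sample.

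Probe sets were named from the platform annotation (21789 with 1 symbol, 1621 with several, the others unnamed here), and of the 19938 genes 19856 matched RefSeq by gene identifier and symbol. Each gene was represented by its single-symbol probe set with the highest mean. SmoM2 was compared with wild type over all genes with limma 3.58.1 in R 4.3.3 (lmFit, eBayes) and Benjamini-Hochberg adjustment at 0.05. Within-array differences were tested by exact permutation. The fit was tested on simulated data. Genes were named by rule: the 10 genes, Hhip, Ptch1, Gli1, Smo and Nkx3-2 as a check, up to 4 called genes of each list or else the 2 with the largest change, and the 4 nearest profiles for Rxrg and Aldh1a1. The members and lists were chosen with earlier results of these data known. Alternatives covered the replicate number, single arrays, dim probe sets, probe set choice, normalization, variance model, array weights and Y-linked signal. The number of arrays limits the precision.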

Additional observations from a re-analysis of the deposited data

How the results depend on the processing

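Rxrg kept a negative change under each of 17 alternatives, from -0.95 to -0.67, and lost the call with a Y-linked covariate (-0.67). It also missed the threshold with wild type 3 alone against SmoM2 (-0.68), a fit with a single wild type array that says little about the call. The number of the 10 genes called was 0 in those 2 fits (2 at an unadjusted p under 0.05 in each), 1 to 2 when single arrays were left out, and 2 (Rxrg lower, Aldh1a1 higher) with the replicate block and with array weights. Over all genes 196 calls became 698 with the replicate block, 297 above the median signal, 336 with an intensity trend, 4110 with array weights (whose estimation did not converge), 22 with the Y-linked covariate, 8 with wild type 3 alone and 32 to 247 when single arrays were left out. Deviations of same-numbered arrays from their group means correlated at -0.10, 0.52 and 0.06 across genes, and not every array correlated best with its own number. Within a group these deviations sum to 0, so the correlations depend on each other. They cannot settle whether the titles' replicate numbers mark pairs. Aldh1a1 ranged from 0.38 to 0.71 over the alternatives and passed with the block (adjusted p = 0.00345), with array weights (0.49, adjusted p = 0.0144) and without SmoM2 2.

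Uncalled changes near 0 turned sign. Array weights gave Rara 0.0868, Rarb -0.0377 and Aldh1a3 -0.00869, the Y-linked covariate Aldh1a3 -0.0569, and wild type 3 alone Rxrb -0.00690 and Aldh1a3 -0.0850. Leaving out single arrays gave Rxra -0.0405 to 0.0872, Rxrb -0.0355 to 0.0797, Rara -0.154 to 0.00963, Rarb -0.0162 to 0.0943 and Aldh1a3 -0.0482 to 0.0509. The within-array difference of Rarb ran from -0.00927 to 0.109, that of Rxrg from -0.96 to -0.80 and that of Aldh1a1 from 0.30 to 0.65. The cause of these shifts was not tested. In simulated data on the same 19938 genes, 64 of 100 changes of 0.5 and 95 of 100 changes of 1 (log2) were recovered. The simulated noise was independent between genes, so shifts that many genes of an array share were left out.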

Other observations

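Genes that work with the receptors were also measured. Of 11 measured nuclear receptor coregulators 0 passed in limma, and 3 had an unadjusted p under 0.05, beside 10.5% of all genes. The change was negative in 10, and the median was -0.18 on the log2 scale, beside 0.00182 over all genes. The largest differences were in the paired histone acetyltransferase genes Ep300 and Crebbp. Ep300 averaged 10.78 ± 0.19 in SmoM2 and 11.17 ± 0.12 in wild type (SD, n = 3 each; log2 change -0.39, adjusted p = 0.154), and Crebbp 11.632 ± 0.149 in SmoM2 and 11.996 ± 0.137 in wild type (log2 change -0.36, adjusted p = 0.157). In 5 of the 11, Ep300, Crebbp, Ncoa2, Nsd1 and Hdac3, the groups did not overlap, all with SmoM2 lower, beside 10.1% of all genes. The last 3 were named after their values were seen.

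The receptors that pair with RXRs showed little difference. Of 12 measured partner genes 0 passed in limma and 0 had an unadjusted p under 0.05, the median change was 0.02, and the groups did not overlap in 1 (15.7% of all genes do so), Thra, a thyroid hormone receptor gene (10.62, 10.73 and 10.83 in SmoM2, against 10.85, 10.92 and 10.85 in wild type; log2 change -0.15, adjusted p = 0.558). Nr1h4, the bile acid receptor gene, had the next largest change, 0.11 (adjusted p = 0.722).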
